A study of Mus musculus with 10 samples.

Results

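The genes described here make and recycle glutathione or answer to the transcription factor NRF2. They are Nfe2l2, Keap1, Slc7a11, Gclc, Gclm, Gss, Gsr, Nqo1, Txnrd1 and Srxn1, taken by symbol from a table of 54532 genes, and all 10 of 10 were found and passed the filter on low counts. RNA was sequenced from B cells of the mouse spleen. The fibrosis group, 5 libraries, came from animals with liver fibrosis that had received carbon tetrachloride, a solvent toxic to hepatocytes, by intraperitoneal injection over 4 weeks, and the control group, also 5 libraries, from wildtype animals. The labels do not state strain, age, sex, any vehicle injection of the controls, how the B cells were isolated or whether each library is a separate animal. P-values therefore speak only of the spread among these libraries, part of which may be technical.

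NRF2, encoded by Nfe2l2, is a bZIP factor that is held back by KEAP1, which delivers it to a CUL3 ubiquitin ligase. Oxidants and electrophiles modify cysteines of KEAP1, NRF2 then accumulates, pairs with a small MAF protein and binds antioxidant response elements near its target genes. Among these targets are the enzymes of glutathione synthesis, the cystine transporter that feeds it, and the reductases that keep glutathione and thioredoxin in the reduced state.

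In fibrosis, 5 of the 10 genes were lower and 1 was higher, against 35.7% of all tested genes called in either direction, at an adjusted p under 0.05 (edgeR's quasi-likelihood test, Benjamini-Hochberg adjustment over 14283 genes). By that rule 17.2% of all tested genes were lower and 18.6% of all tested genes were higher. Both subunits of the enzyme that commits cysteine to glutathione, Gclc and Gclm, fell to 0.515 and 0.456 of their control levels, and the quinone reductase gene Nqo1 fell to 0.395. A fall of at least 2-fold that passed the test, as for Gclm and Nqo1, was found in 5.38% of tested genes. Smaller falls were found for the glutathione synthetase gene Gss (0.738) and the thioredoxin reductase gene Txnrd1 (0.792). The sulfiredoxin gene Srxn1 was the one that rose, by 2.26-fold. Nfe2l2, Keap1, Gsr and Slc7a11 did not pass the test. The libraries of the fibrosis group all lay below those of the control group for the 5 genes that fell, an arrangement found in 14.0% of all tested genes, while the groups overlapped for the other members.

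**Figure D1:**
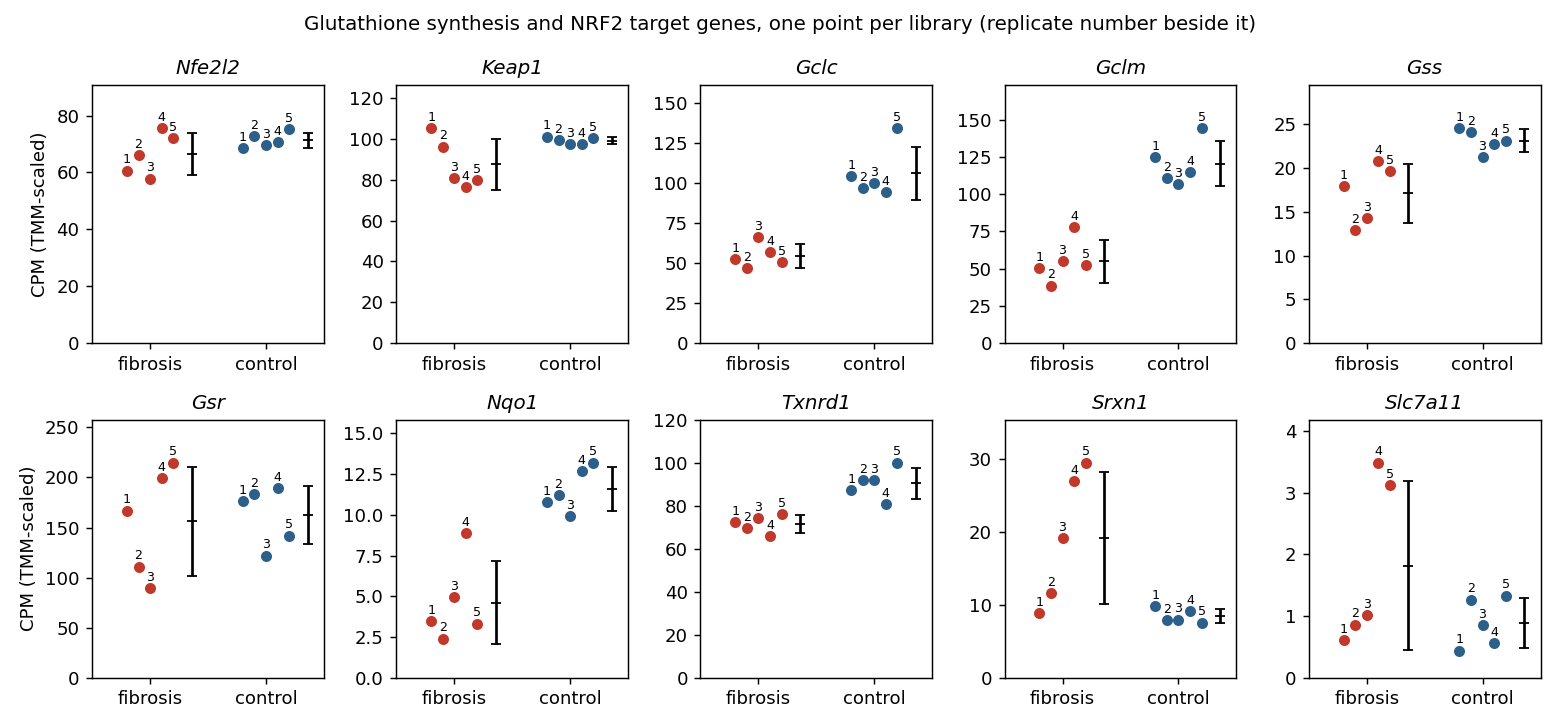
Level of each of the 10 genes in every library, in CPM (counts scaled to library size by TMM, linear axis from 0), fibrosis on the left in red and control on the right in blue, with the mean and SD (n = 5 each) as black bars and the replicate number beside each point. Gclc, Gclm, Gss, Nqo1 and Txnrd1 show no overlap between groups, and Srxn1 and Slc7a11 are highest in fibrosis 4 and 5.

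Sequence upstream of the start site is shown for the genes with the clearest opposite changes, so that the letters before Gclm and Nqo1, which fell, can be set beside those before Srxn1, which rose. Each run is the 250 bases before the RefSeq start (GRCm38.p6), 5′ to 3′ on the strand of the gene, and capitals mark a match to one of the searched motifs.
Gclm, chr3:122245307-122245556, plus strand: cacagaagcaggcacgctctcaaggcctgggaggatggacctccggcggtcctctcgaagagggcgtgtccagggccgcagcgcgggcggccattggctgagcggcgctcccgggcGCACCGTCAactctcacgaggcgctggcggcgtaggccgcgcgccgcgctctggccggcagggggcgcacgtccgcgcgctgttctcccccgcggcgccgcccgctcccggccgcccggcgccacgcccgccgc
Nqo1, chr8:107403206-107403455, minus strand: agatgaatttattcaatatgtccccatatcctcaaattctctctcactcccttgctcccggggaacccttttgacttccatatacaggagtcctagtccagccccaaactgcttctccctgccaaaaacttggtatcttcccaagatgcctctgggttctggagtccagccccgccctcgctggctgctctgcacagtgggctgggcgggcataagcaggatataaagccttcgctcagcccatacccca
Srxn1, chr2:152105274-152105523, plus strand: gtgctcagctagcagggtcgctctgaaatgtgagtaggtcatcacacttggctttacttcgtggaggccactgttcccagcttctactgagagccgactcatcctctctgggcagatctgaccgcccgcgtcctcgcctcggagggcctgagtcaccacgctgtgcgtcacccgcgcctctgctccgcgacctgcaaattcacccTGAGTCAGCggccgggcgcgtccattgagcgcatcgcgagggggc
The motifs were TGACNNNGC, the core of the antioxidant response element, and TGANTCAGC, a related form that contains the AP-1 core TGANTCA and overlaps the other motif where its N is C, each searched on both strands. The related form was added after the sequences had been read. RefSeq windows were found for 8 of the 10 genes, all but Gclc and Gsr, with more than one start for Txnrd1. TGACNNNGC was found before Nfe2l2, Gclm and one start of Txnrd1, that is 3 of 8 genes, and before 11.5% of the 27025 genes of the table. For Nfe2l2 the bases after the start used were not found in a GENCODE transcript of the gene. In Gclm the match lies on the opposite strand, 134 to 126 bases before the start, and reads gagagtTGACGGTGCgcccgg. TGANTCAGC was found before Srxn1 alone among the 8, 45 to 37 bases before its start as tcacccTGAGTCAGCggccgg, and before 1.17% of all genes. Because that form was chosen with these sequences in view, its share is a description and no comparison for Srxn1. Srxn1 also had a match to TGACNNNGC, on the opposite strand and 29 to 37 bases after the start, outside the window. Nqo1 had no match to these letters in its window. These are matches of letters and no measure of binding.

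The libraries held 13439100 to 17069393 counts in fibrosis and 15912080 to 17954551 in control, of which the 10 genes took 7408 to 9247 and 11808 to 12961. Fibrosis 4 and 5 stood apart from fibrosis 1 to 3 on the second principal component (17.8% of the variance). No label sets them apart, so fits that leave both out follow a split seen in these same data. Values from those fits are descriptions. B cell markers were present in all libraries, at a summed level of 7945 to 11391 CPM in fibrosis and 7570 to 8675 CPM in control, with 4 of 11 higher. By the same test, 18.6% of all tested genes were higher and 17.2% were lower, for this and the following marker lists. Markers of other cells were present too, with none at 0 in any library among the erythroid, neutrophil, macrophage, T cell and dendritic cell lists. Erythroid markers were lower in 15 of 20 genes. Summed over the 16 that are not globins, a split made after the data were seen, they stood at 29.0%, 16.9%, 30.4%, 41.9% and 11.4% of the control mean in fibrosis 1 to 5, and at 85.7% to 131% in the controls. With globins included, the list summed to 1301 to 8621 CPM in fibrosis and 5821 to 9063 CPM in control. All 9 of 9 tested platelet markers were higher, at 296, 371, 722, 1218 and 1280 CPM in fibrosis 1 to 5 against 161 to 204 CPM in control, and all 16 of 16 dividing cell markers were lower, at 1230 to 1880 CPM against 3306 to 4282 CPM. Dendritic cell markers were higher in 6 of 11 genes, at 1189 to 1396 CPM in fibrosis and 825 to 899 CPM in control. T cell markers were higher in 4 of 12 (118 to 207 CPM in fibrosis, 95.2 to 131 CPM in control) and natural killer cell markers in 4 of 9 (85.1 to 177 CPM in fibrosis, 74.5 to 126 CPM in control). Pancreatic acinar markers were lower in 6 of 7 tested genes (10.9 to 58.9 CPM in fibrosis, 48.2 to 115 CPM in control), and 2 to 9 of the 11 listed were at 0 in each fibrosis library, against 0 or 1 in each control. Most of the fibrosis sum was Cela1, the tested gene that was not called (mean 31.1 CPM in fibrosis, 39.8 CPM in control). The 6 lower genes had means of 0.016 to 0.36 CPM in fibrosis and 1.87 to 6.14 CPM in control. In bulk RNA, fewer cells of a type and less RNA per cell cannot be told apart.

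Gclc encodes the catalytic subunit of glutamate-cysteine ligase, the rate-limiting enzyme of glutathione synthesis (GRCm38 chromosome 9, 77754535 to 77794485, plus strand). It stood at 52.4, 47.0, 66.4, 56.6 and 50.5 CPM in fibrosis 1 to 5, against 104, 96.7, 100.1, 94.5 and 135 CPM in control 1 to 5. Every fibrosis library was thus below every control library, with control 5 set off above the other controls. The mean was 54.6 ± 7.47 CPM in the fibrosis group and 106 ± 16.4 CPM in the control group (SD, n = 5 each), a log2 fold change of -0.96 ± 0.12 (SE; adjusted p = 7.72e-05 by edgeR). Gclm encodes the modifier subunit, which raises the affinity of the enzyme for glutamate (chromosome 3, 122245557 to 122270732, plus strand). Its levels were 50.2, 38.6, 55.2, 78.2 and 52.6 CPM in fibrosis 1 to 5 and 125, 111, 107, 115 and 145 CPM in control 1 to 5. Fibrosis 4 came closest to the controls and fibrosis 2 lay farthest from them. The log2 fold change of Gclm was -1.13 ± 0.16 (adjusted p = 0.000165 by edgeR).

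The pair fell together, but not in a fixed proportion in each library. On the FPKM scale, which divides by gene length, Gclc was 1.74, 2.03, 2.01, 1.21 and 1.60 times as high as Gclm in fibrosis 1 to 5, and 1.37 to 1.56 times as high in the controls. The fibrosis ratios straddled those of the controls, with fibrosis 4 below them all and the other fibrosis libraries above them all. Within the fibrosis group, non-globin erythroid markers also peaked in fibrosis 4, and they were lowest in fibrosis 5 and 2. Dividing cell markers stood at 1721, 1445, 1653, 1880 and 1230 CPM in fibrosis 1 to 5 with the highest in fibrosis 4. Pancreatic acinar markers were highest there too, at 58.9 CPM, most of it from Cela1. Without fibrosis 4 and 5 the log2 fold changes were -0.93 ± 0.14 for Gclc and -1.32 ± 0.13 for Gclm (adjusted p = 0.000284 and 2.11e-05 by edgeR). The mean erythroid level did not overlap between groups, so its part and that of the group cannot be told apart here. With that level as a covariate, the log2 fold changes were -0.60 ± 0.23 for Gclc and -0.42 ± 0.20 for Gclm (adjusted p = 0.225 and 0.340 by edgeR). That fit called neither gene, and called 11 genes in all (7 higher and 4 lower, 0.0490% and 0.0280% of those tested).

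Gss encodes glutathione synthetase, which adds glycine to the dipeptide made by the ligase. It was at 18.0, 12.9, 14.2, 20.8 and 19.6 CPM in fibrosis 1 to 5 and at 24.6, 24.1, 21.2, 22.7 and 23.1 CPM in control 1 to 5. The groups did not overlap, although fibrosis 4 and control 3 came within 1 CPM of each other. Its log2 fold change was -0.44 ± 0.13 (adjusted p = 0.0192 by edgeR), and -0.61 ± 0.12 without fibrosis 4 and 5. The gene overlaps Acss2 on the other strand, which drew 3619 counts beside the 3377 of Gss, and the sources used here do not say whether the counting used strand.

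Gsr encodes glutathione reductase, which returns oxidised glutathione to its reduced form with NADPH. It was the most abundant of the 10 genes per length, at 55.6 ± 18.6 FPKM in fibrosis and 59.0 ± 10.8 FPKM in control. The levels were 167, 111, 89.3, 199 and 215 CPM in fibrosis 1 to 5 and 177, 183, 122, 189 and 142 CPM in control 1 to 5. The fibrosis libraries spread on both sides of the controls, with fibrosis 4 and 5 above all of them and fibrosis 2 and 3 below. The log2 fold change was -0.06 ± 0.23 (adjusted p = 0.866 by edgeR), and -0.40 ± 0.21 without fibrosis 4 and 5 (adjusted p = 0.160 by edgeR; 0.160 to 1.00 over all alternatives). Neutrophil markers had the same order as Gsr over the fibrosis libraries, at 1609, 777, 441.5, 3843 and 4757 CPM in fibrosis 1 to 5. In control they were at 740 to 1887 CPM. The 12 markers had adjusted p from 0.0919 to 0.897 by edgeR. Macrophage and monocyte markers also had the order of Gsr over the fibrosis libraries, at 3036, 2401, 1754, 5222 and 5867 CPM in fibrosis 1 to 5. The part of either kind of cell in the level of Gsr was not tested.

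Slc7a11 encodes the cystine-glutamate exchanger xCT, which brings in cystine as the source of cysteine. It was barely detected, with 133 counts over the fibrosis libraries and 79 over the controls. Its level was 0.611, 0.862, 1.02, 3.49 and 3.12 CPM in fibrosis 1 to 5 and 0.437, 1.27, 0.851, 0.566 and 1.33 CPM in control 1 to 5. Fibrosis 4 and 5 were above all other libraries, and fibrosis 1 to 3 lay within the control range. The log2 fold change was 1.01 ± 0.51 (adjusted p = 0.138 by edgeR), and -0.086 ± 0.41 without fibrosis 4 and 5 (adjusted p = 0.891 by edgeR; 0.0324 to 0.891 over all alternatives). Macrophage and monocyte markers, of which 1 of 14 was higher, summed to 5222 and 5867 CPM in fibrosis 4 and 5, to 1754 to 3036 CPM in the other fibrosis libraries and to 3181 to 5155 CPM in control. Over control 1 to 5 these sums were 5120, 5074, 3181, 5155 and 3572 CPM, an order unlike that of Slc7a11. Neutrophil, platelet, T cell and natural killer cell sums were also highest in fibrosis 4 and 5. Whether the Slc7a11 reads came from any of these cells was not tested.

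**Figure D2:**
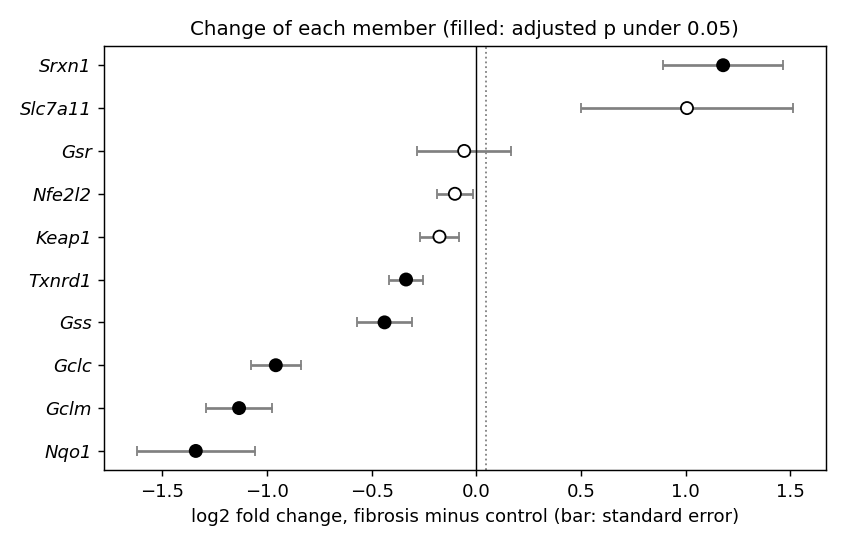
Log2 fold change of each gene, fibrosis minus control, with its standard error as a bar; filled points have an adjusted p under 0.05 by edgeR, and the dotted line marks the median of all tested genes (0.05). Nqo1 (-1.34), Gclm (-1.13) and Gclc (-0.96) lie farthest to the left, and Srxn1 (1.18) farthest to the right.

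The regulator and its inhibitor changed little. Nfe2l2 was at 60.7, 66.0, 57.8, 75.7 and 72.0 CPM in fibrosis 1 to 5 and at 68.4, 72.7, 69.6, 70.5 and 75.2 CPM in control 1 to 5. Fibrosis 1 to 3 lay below all controls and fibrosis 4 and 5 among or just above them. Nfe2l2 had a log2 fold change of -0.10 ± 0.09 (adjusted p = 0.385 by edgeR, with 0.0453 to 0.962 over all alternatives). Without fibrosis 4 and 5 it was -0.21 ± 0.07 (adjusted p = 0.0453 by edgeR). Those libraries held its highest fibrosis levels, so leaving them out deepens the fall by construction. Keap1 was at 105, 96.3, 80.8, 76.4 and 79.9 CPM in fibrosis 1 to 5 against 101, 99.4, 97.4, 97.6 and 100.3 CPM in control 1 to 5. Relative to the mean its controls were the tightest of any member, with an SD of 1.66 CPM around 99.2 CPM, while fibrosis 1 was above them and the other fibrosis libraries were below. The log2 fold change of Keap1 was -0.18 ± 0.09 (adjusted p = 0.165 by edgeR). It passed without fibrosis 1 (-0.25, adjusted p = 0.0317 by edgeR; 0.0317 to 0.586 over all alternatives). The ratio of Nfe2l2 to Keap1 in FPKM was 0.957 ± 0.209 in fibrosis and 0.889 ± 0.0335 in control (SD, n = 5 each), with a range of 0.711 to 1.22 in fibrosis that took in that of the controls, 0.836 to 0.926.

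Nqo1 encodes an NAD(P)H quinone reductase that is a textbook readout of NRF2 activity (chromosome 8, 107388225 to 107403206, minus strand). It had the largest fall of the 10 genes. Its levels were 3.48, 2.40, 4.97, 8.88 and 3.32 CPM in fibrosis 1 to 5 and 10.8, 11.2, 9.95, 12.7 and 13.2 CPM in control 1 to 5. Fibrosis 4 was near the lowest control and the other fibrosis libraries were all under 5 CPM. This gave a log2 fold change of -1.34 ± 0.28 (adjusted p = 0.00255 by edgeR), and -1.66 ± 0.21 without fibrosis 4 and 5 (adjusted p = 0.000102 by edgeR). With the erythroid level as a covariate it was 0.023 (adjusted p = 0.977 by edgeR, the highest over all alternatives, of which the lowest was 7.43e-13). That covariate is the mean log2 level of the erythroid markers, globins included, and did not overlap between groups. Its part in the fall of Nqo1 and that of the group cannot be told apart. The lowest non-globin erythroid levels were those of fibrosis 5 and 2, and the highest among the fibrosis libraries that of fibrosis 4, which also held the highest dividing cell and pancreatic acinar levels of the group.

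Txnrd1 encodes the cytosolic thioredoxin reductase, a selenoprotein. It was at 72.5, 69.7, 74.2, 65.8 and 76.2 CPM in fibrosis 1 to 5 and at 87.3, 92.2, 92.0, 80.9 and 100.2 CPM in control 1 to 5. The groups did not overlap and fibrosis 4, the library nearest to the controls for Nqo1 and Gclm, was here the lowest. Txnrd1 had a log2 fold change of -0.34 ± 0.08 (adjusted p = 0.00540 by edgeR), and -0.32 ± 0.08 without fibrosis 4 and 5. Txnrd1 varied least among the fibrosis libraries, with an SD of 5.65% of the mean in fibrosis and 7.82% in control.

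Srxn1 encodes sulfiredoxin, which repairs overoxidised peroxiredoxins (chromosome 2, 152105516 to 152111376, plus strand). Its levels were 8.92, 11.6, 19.1, 27.0 and 29.5 CPM in fibrosis 1 to 5 and 9.79, 7.92, 7.98, 9.11 and 7.57 CPM in control 1 to 5. Fibrosis 1 lay within the control range and the other fibrosis libraries were above all controls. Srxn1 had a log2 fold change of 1.18 ± 0.29 (adjusted p = 0.00694 by edgeR). It was 0.65 ± 0.21 without fibrosis 4 and 5 (adjusted p = 0.0280 by edgeR; 1.25e-09 to 0.231 over all alternatives). Platelet markers had the same order over the fibrosis libraries, lowest in fibrosis 1 and highest in fibrosis 5. Whether the rise lies in B cells or in such cells was not tested.

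Genes whose profile over the 10 libraries was most like that of Srxn1 and of Nqo1 were found by the root mean square difference in log2 CPM, each gene set to its own control mean. For Srxn1 they were Vwf, the von Willebrand factor gene of platelets and endothelium (0.12), Tsc22d1 (0.13) and the linker histone gene Hist1h1c (0.16), out of 8910 protein-coding genes with a median difference of 0.90. For Nqo1 they were the carbonic anhydrase gene Car1 (0.18), Pnp2, which encodes a purine nucleoside phosphorylase (0.18), and Cdr2 (0.18), out of 8911 genes with a median of 1.14. Among the 10 genes themselves, Keap1 and Txnrd1 had the smallest difference (0.18), and 3 other pairs of Keap1, Nfe2l2, Gss and Txnrd1 followed at 0.21, 0.22 and 0.24. By this measure genes that stay near their control means score as alike, whatever their order over the libraries. Keap1 and Txnrd1 did not have the same order over the fibrosis libraries. Gclc and Gclm differed by 0.25 and Gclm and Nqo1 by 0.32, while Nqo1 and Srxn1 were least alike at 1.81. The likeness includes the difference between groups.

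**Figure D3:**
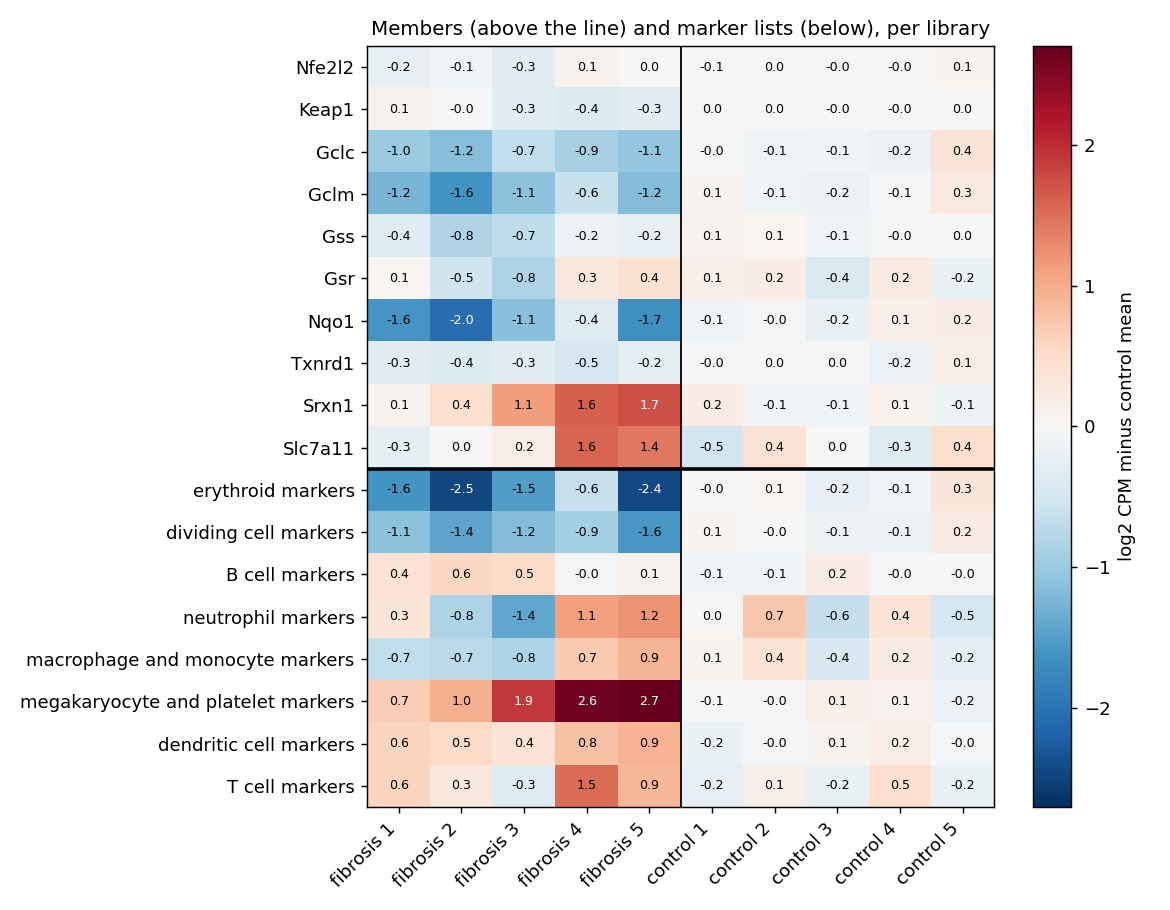
Level of each gene (log2 of CPM + 0.5) and mean level of marker lists (log2 CPM with a prior count of 2) in every library, minus the control mean. The lists drawn are erythroid, dividing cell, B cell, neutrophil, macrophage and monocyte, platelet, dendritic cell and T cell. Fibrosis libraries are left of the controls. Gclm and Nqo1 are least reduced in fibrosis 4, where erythroid and dividing cell markers are also least reduced. Srxn1 and Slc7a11 are highest in fibrosis 4 and 5, where platelet markers are highest.

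The fibrosis libraries differed more among themselves than the controls did. Across genes, pairs of fibrosis libraries correlated at 0.965 to 0.986 in log2 CPM, and pairs of control libraries at 0.987 to 0.992. The wider spread was thus not particular to the genes described here. The SD of log2 CPM was larger in fibrosis for 8 of the 10 genes, all but Gclc and Txnrd1. The share of all tested genes with a larger SD in fibrosis was not computed. In fibrosis it was 0.85 for Slc7a11, 0.73 for Srxn1, 0.65 for Nqo1 and 0.55 for Gsr, against 0.43, 0.15, 0.16 and 0.27 in control. Among the fibrosis libraries, fibrosis 4 held the highest level of 5 genes (Nfe2l2, Gclm, Gss, Nqo1 and Slc7a11) and the lowest of 2 (Keap1 and Txnrd1). Fibrosis 5 held the highest level of 3 (Gsr, Txnrd1 and Srxn1), and fibrosis 2 the lowest of 4 (Gclc, Gclm, Gss and Nqo1).

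Levels per length also changed in order. In fibrosis, Gsr was followed by Keap1 (18.5 ± 3.09 FPKM), Nfe2l2 (17.2 ± 1.71), Gclc (14.3 ± 2.04), Txnrd1 (9.96 ± 0.523), Gclm (8.60 ± 2.26), Srxn1 (6.66 ± 3.0), Nqo1 (2.93 ± 1.63), Gss (2.85 ± 0.545) and Slc7a11 (0.127 ± 0.0941). The ranges of neighbours did not overlap between Gsr and Keap1, Gclc and Txnrd1, and Gss and Slc7a11, and overlapped for all other neighbours. In control, Gsr was followed by Gclc (28.1 ± 4.41 FPKM), Keap1 (21.1 ± 0.475), Gclm (19.1 ± 2.49), Nfe2l2 (18.8 ± 0.761), Txnrd1 (12.8 ± 0.998), Nqo1 (7.44 ± 0.901), Gss (3.91 ± 0.246), Srxn1 (3.0 ± 0.340) and Slc7a11 (0.0639 ± 0.0290). Only the ranges of Gclm with Keap1 and with Nfe2l2 overlapped among neighbours there. By group means, Gclc thus moved down behind Keap1 and Nfe2l2 in fibrosis, relative to its place in control. In fibrosis 3, however, Gclc (17.4 FPKM) was above both Keap1 (17.0 FPKM) and Nfe2l2 (15.1 FPKM).

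The other genes of the pathway were taken from 7 lists of 119 symbols in all, of which 106 were tested. Of these, 14 were higher (13.2%, against 18.6% of all tested genes) and 28 were lower (26.4%, against 17.2%). The median log2 fold change was -0.06, against 0.05 for all tested genes. Without fibrosis 4 and 5, 17 were higher and 44 were lower, where 18.4% and 18.8% of all genes were called. With library size alone as the scaling, 9 were higher. The counts of each list below can be set against the shares of all tested genes given here.

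**Figure D4:**
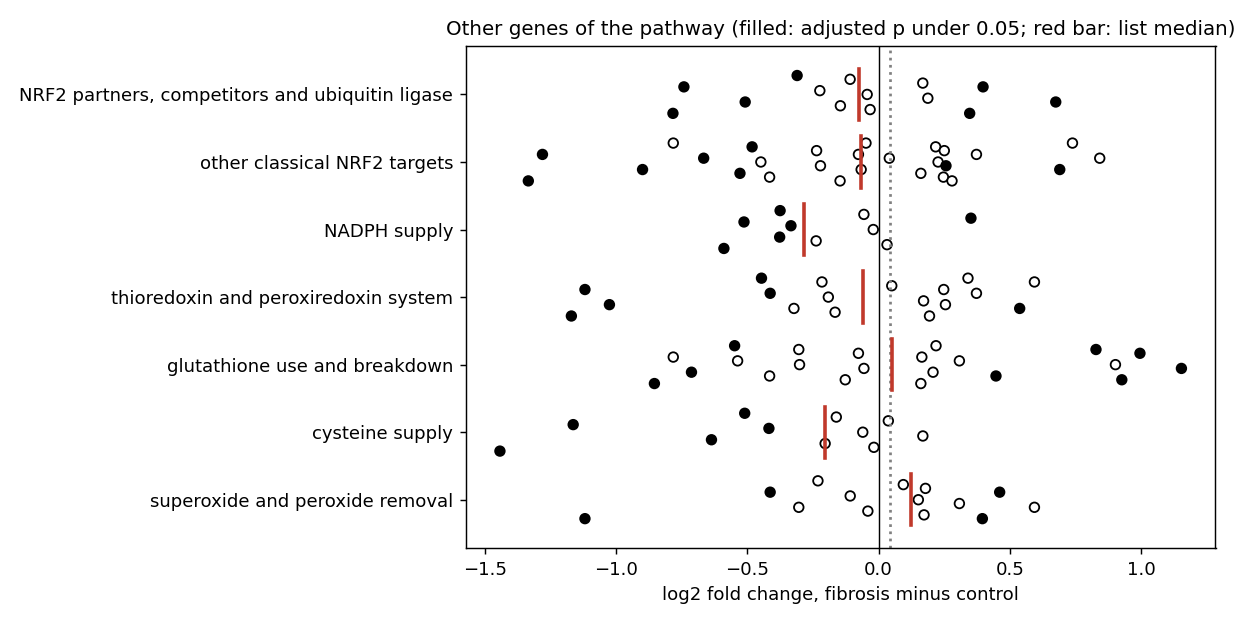
Log2 fold change, fibrosis minus control, of the tested genes of each pathway list, with filled points at an adjusted p under 0.05 by edgeR, a red bar at each list's median and a dotted line at the median of all tested genes. Some genes are on more than one list; the NADPH supply (-0.29) and cysteine supply (-0.20) medians lie farthest to the left.

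Partners, competitors and degraders of NRF2 were higher in 3 and lower in 4 of 14 tested genes, with a median of -0.08. Without control 4, 1 was higher. The small MAF gene Mafg, whose product pairs with NRF2, fell by 0.51 on the log2 scale (adjusted p = 0.000332 by edgeR), and Btrc, a ubiquitin ligase adaptor that also targets NRF2, fell by 0.74. Nfe2, the related factor of erythroid cells and megakaryocytes, fell by 0.78. Sqstm1, the autophagy adaptor p62 that sequesters KEAP1 and is itself an NRF2 target, rose by 0.40 ± 0.08 (adjusted p = 0.00239 by edgeR). Its levels were 342, 323, 280.4, 328 and 336 CPM in fibrosis 1 to 5 and 226 to 262 CPM in control, with no overlap.

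Other classical targets were higher in 2 and lower in 6 of 27 tested genes (7.41% and 22.2%, against 18.6% and 17.2% of all tested genes, median -0.07). Leaving out any one of control 1 to 4 gave 1 higher, and leaving out fibrosis 4 and 5 together gave 4 higher and 12 lower. The biliverdin reductase gene Blvrb was at -0.90, the carbonyl reductase gene Cbr1 at -0.67 and the transporter gene Abcc5 at -0.53, all lower by the test. The glutathione transferase gene Gstm4, which has near-identical relatives that counting could confuse, rose by 0.69 ± 0.15 (adjusted p = 0.00365 by edgeR). Of the enzymes that supply NADPH, 5 of 10 tested were lower and 1 was higher (median -0.29). Tkt, the transketolase of the pentose phosphate pathway, fell by 0.59, the malic enzyme gene Me2 by 0.33 and the mitochondrial NAD kinase gene Nadk2 by 0.51. Pgls, which encodes a lactonase of the same pathway, rose by 0.35. Only 2 of this list were lower without fibrosis 2 or without control 5, and 3 without control 1, 2 or 4. Nadk2 lost its call without fibrosis 1, 2 or 5 or without control 3 or 5 (-0.50 to -0.43).

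Thioredoxin and peroxiredoxin genes were lower in 5 and higher in 1 of 18 tested (median -0.06). Without fibrosis 1 or 2 there were 2 higher and without fibrosis 3 there were 3, and without both fibrosis 4 and 5 there were 8 lower. The lower ones included Glrx5, a mitochondrial glutaredoxin of iron-sulfur cluster assembly (-1.17 ± 0.19), Prdx2, the main peroxiredoxin of red cells (-1.12 ± 0.20), and the mitochondrial reductase gene Txnrd2 (-1.02 ± 0.15). Prdx2 stood at 298, 212, 279.6, 478 and 229.5 CPM in fibrosis 1 to 5 and 515 to 764 CPM in control, and like Nqo1 peaked in fibrosis 4 within the fibrosis group and was lowest in fibrosis 2. Txnip, whose product binds and inhibits thioredoxin, rose by 0.54 ± 0.10 (adjusted p = 0.00122 by edgeR).

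Genes of glutathione use and breakdown were higher in 5 and lower in 3 of 22 tested (median 0.05), with 5 lower without fibrosis 4 and 8 without both fibrosis 4 and 5. Ggct, which encodes the cyclotransferase that acts on gamma-glutamyl amino acids, stood at 21.1, 20.6, 23.3, 21.2 and 29.4 CPM in fibrosis 1 to 5 and at 10.7 to 13.3 CPM in control. These groups were well apart, and the log2 fold change was 0.93 ± 0.12 (adjusted p = 9.87e-05 by edgeR). Ggt5, a gamma-glutamyltransferase of the cell surface, rose by 1.00 ± 0.19, while Glo1 and Hagh, the pair of enzymes that clear methylglyoxal with glutathione, fell by 0.71 and 0.85. Genes listed under cysteine supply were lower in 5 of 11 tested (median -0.20), and the other 6 did not pass. Cth, Cbs and Cdo1 had too few counts to be tested. The list also holds the sulfurtransferase gene Mpst and the amino acid transporter gene Slc7a5, so its count is no measure of cysteine supply. Slc7a5, the large neutral amino acid transporter LAT1, stood at 81.8, 62.0, 67.3, 50.4 and 41.0 CPM in fibrosis 1 to 5 and at 119.8 to 149 CPM in control, a log2 fold change of -1.16 ± 0.16 (adjusted p = 0.00014 by edgeR). The neutral amino acid transporter gene Slc1a4 fell by 1.44, Ahcy, which encodes S-adenosylhomocysteine hydrolase, by 0.51 and Mpst, which encodes a mercaptopyruvate sulfurtransferase, by 0.64.

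Genes that make or remove superoxide and peroxide were higher in 2 and lower in 2 of 14 tested (median 0.12). The higher ones were Cybb and Cyba, the membrane subunits of the phagocyte NADPH oxidase, which B cells also express, at 0.46 ± 0.10 and 0.40 ± 0.12 (adjusted p = 0.0038 and 0.0242 by edgeR). Cyba was at 0.27 without both fibrosis 4 and 5 (adjusted p = 0.0921 by edgeR, with 0.00552 to 0.399 over all alternatives). The lower ones were Prdx2 and the mitochondrial peroxiredoxin gene Prdx3, at -0.41 ± 0.14 (adjusted p = 0.0347 by edgeR). When single libraries were left out, Cyba lost its call without fibrosis 4 or 5 or without control 3 or 5 (0.34 to 0.36), and Prdx3 without fibrosis 1, 2, 3 or 5 or without control 1, 2 or 5 (-0.42 to -0.34), so that the list then held 1 higher or 1 lower gene. Without both fibrosis 4 and 5, Prdx3 was at -0.63 and 5 genes of the list were lower. Non-globin erythroid markers and dividing cell markers were below all controls in all 5 fibrosis libraries, while globins were at 265% and 121.0% of the control mean in fibrosis 4 and 5. The part of such cells in the values of these lists was not tested.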

How the data were processed

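The authors deposited raw counts of reads as whole numbers for each gene, and FPKM, with 1 column per library. Per the labels' protocols, mRNA was selected with poly-T beads and copied with random hexamers, and the submitters' processing notes name GRCm38 (mm10). The aligner, the counter and its strand setting are missing from the sources used here. From the values, each deposited FPKM is the count per listed length and library total times a factor per library of 0.935 to 1.07. Here, edgeR 4.0.16 (R 4.3.3) tested the counts of 14283 genes kept by filterByExpr, with TMM scaling, a robust quasi-likelihood fit, no covariate and Benjamini-Hochberg adjustment. The standard error is the absolute log2 fold change over the square root of F. The code was tested on simulated counts. Alternatives were limma 3.58.1, DESeq2 1.42.0, other scalings and filters, a replicate block, an erythroid covariate and left-out libraries. One repeated symbol was taken at its highest total. The members and lists were chosen with earlier results of these data known. Named pathway genes are up to 4 per list with the smallest p, and likeness was sought for the largest called rise and fall. Upstream sequences are from RefSeq (GRCm38.p6), and 9 of 10 windows of the members, all but that of Nfe2l2, ran into a GENCODE transcript of the gene. Libraries of a group differed beyond sampling noise.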

Additional observations from a re-analysis of the deposited data

Results flagged for a closer look

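In 42 groups of 5 libraries (the 10 genes and 11 marker lists in each condition), 3 had one library set off from the rest by more than 0.71 of the range, where chance sets off about 1 in 20. Gclc in control 5 stood at 135 CPM, with the next control at 104 CPM. Summed natural killer cell markers stood at 126 CPM in control 4, with the next control at 82.0 CPM. Pancreatic acinar markers summed to 115 CPM in control 4, with the next control at 58.4 CPM.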

How the results depend on the processing

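Over 22 alternatives, 205 of 220 log2 fold changes of the 10 genes kept their direction and side of the threshold, as did 544 of 594 of the 27 named pathway genes. Leaving out single libraries ended none of the 6 calls among the 10 genes (highest adjusted p = 0.0474 by edgeR, for Gss). Gsr ranged from -0.20 to 0.068 there. Slc7a11 was at -0.086 without fibrosis 4 and 5. Without the filter on low counts, 2 members were higher, Slc7a11 being added (0.94), and with log2(FPKM + 1) without that filter 0 were, Srxn1 being at 0.84 (adjusted p = 0.0594 by limma). With library size alone, 35.0% of all calls were higher, against 52.0% with TMM, the median gene moved by -0.11, 9 pathway genes were higher, and Keap1 passed (-0.28, adjusted p = 0.0353 by edgeR). The erythroid score as a covariate left 7 higher and 4 lower calls among all genes, 0 in either direction among the members and 0 among the pathway genes. Nqo1 (0.023), Gsr (0.081), Nadk2 (0.16), Hagh (0.13) and Prdx3 (0.12) changed sign in that fit. Some other calls were lost with folds of like size and wider errors, as for Srxn1 (1.38 ± 0.53), Txnrd1 (-0.40 ± 0.17), Gstm4 (0.89), Ggt5 (1.13), Mafg (-0.48) and Slc7a5 (-0.98). Others were lost with much smaller folds, as for Gclm (-0.42, from -1.13) and Gss (-0.16, from -0.44). The same held for Nfe2 (-0.19, from -0.78) and Blvrb (-0.19, from -0.90). The fit's covariate differed between groups without overlap. Without fibrosis 4 and 5, 44 pathway genes were lower. The cause of these changes was not tested.

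The labels give no pairing of replicate numbers. Same-numbered libraries correlated from -0.248 to 0.419 in their deviations from group means. For numbers 1, 3 and 4 the same-numbered library was the best match in both directions, and for numbers 2 and 5 it was not. Whether same-numbered libraries share a batch was not tested. With the replicate block, 5211 genes were called against 5105, with 1 member higher and 5 lower. Slc7a11 rested on 133 counts in fibrosis and 79 in control.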

Other observations

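Some genes that often stand for this pathway fell outside the naming rule and were picked after their values were seen. Hmox1, the haem oxygenase that NRF2 and BACH1 control, was at 543.5 ± 428 CPM in the fibrosis group and 326 ± 100.1 CPM in the control group (SD, n = 5 each), a log2 fold change of 0.74 ± 0.48 (adjusted p = 0.260 by edgeR). The ferritin genes Ftl1 and Fth1 had log2 fold changes of 0.25 ± 0.25 and -0.048 ± 0.15 (adjusted p of 0.468 for Ftl1 and 0.835 for Fth1 by edgeR). Slc3a2, the heavy chain that carries both xCT and LAT1 to the membrane, was at -0.16 ± 0.09 (adjusted p = 0.204 by edgeR), beside the fall of its partner Slc7a5. The transferase genes Gstm5 and Mgst3 had the largest falls among the classical targets, at -1.33 ± 0.35 and -1.28 ± 0.28 (adjusted p = 0.0121 and 0.00478 by edgeR).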
